A study of Homo sapiens with 4 samples.

Results

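The genes described here encode the E2F transcription factors and the RB pocket proteins that bind them in IMR90 cells, a human lung fibroblast line. The members were chosen by name and number 10 of the 22679 gene symbols (joined loci counted once) with a value in the deposited tables: E2F1, E2F2, E2F3, E2F4, E2F5, E2F7, E2F8, RB1, RBL1 and RBL2. Each had 1 line in every table. Of these, 9 had a locus of their own, while E2F1 shared 1 locus and 1 value with its neighbour PXMP4, a peroxisomal membrane protein gene, so that every E2F1 value below is that of the joined locus and cannot be split between the genes.

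Poly(A) RNA was sequenced in 4 libraries, with 1 library in each of 4 groups, all from cells at passage 16 in serum-containing medium. The growing library came from cells infected with an empty pBabe retrovirus and kept for 13 days. The library of oncogene-induced senescence (OIS) came from cells with an ER:RasV12 retroviral construct, a mutant RAS that tamoxifen switches on, after 8 days with 10 nM tamoxifen. The other libraries came from cells infected with a retrovirus for H3.3cs1, a Flag-tagged cleaved form of the histone H3.3, taken at day 3 (early) and day 13 (late). The libraries had no replicates, so each difference below describes single libraries, without an SD, a test or a p-value. OIS differed from growing also in vector and tamoxifen, and may differ in time, since its day after infection is not given. The empty vector was measured at day 13 alone, so for H3.3cs1 early the construct, recent infection and time in culture cannot be told apart.

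E2F proteins bind the promoters of genes for DNA replication and division, most of them as dimers with a DP protein. RB1, RBL1 (p107) and RBL2 (p130) bind E2F proteins and hold those genes off until cyclin-dependent kinases phosphorylate the pocket proteins. E2F1, E2F2 and E2F3 are classed as activators, E2F4 and E2F5 as repressors that work mostly with RBL1 and RBL2, and E2F7 and E2F8 as atypical repressors that need neither DP nor a pocket protein. In senescent fibroblasts this pathway is known as the brake on E2F target genes.

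Values are FPKM, read fragments scaled to transcript length and to the mapped fragments of the library, and so can be set side by side between genes. Differences are of log2(FPKM + 1). Only a gene that differed by at least 2-fold on that scale is called changed (rose, fell), and the scale understates changes of low values. Over the 12183 genes that reached 1 FPKM in any library, the median difference from growing of OIS was 0.03, that of H3.3cs1 early -0.02 and that of late -0.04, changing to -0.16, 0.19 and -0.03 after the named genes of every library were rescaled to the same sum. Of the genes called changed 52.8%, 26.1% and 39.1% were higher in these comparisons, and 37.7%, 48.3% and 40.0% after that rescaling. From H3.3cs1 early to late that share was 61.7% and 36.4% after rescaling, and between OIS and H3.3cs1 late it was 56.8% and 41.3%. From the steps between very low values, depth was roughly 76.4% to 96.1% of that of the growing library. HRAS stood at 3153 FPKM in OIS and at 41.9 to 49.8 in the other libraries, as the label of OIS would have it. All 12 fibroblast markers reached 1 FPKM in every library, with a summed level of 13071 FPKM in growing cells against 7347 in OIS, 8494 at day 3 and 13987 at day 13 of H3.3cs1. Of these markers 6 fell and none rose in OIS (median difference -1.03), where 8.17% of all compared genes fell. In H3.3cs1 early 2 fell and 1 rose (S100A4), where 3.96% fell and 1.40% rose. In late 1 rose (LUM) and none fell, where 3.51% rose. The part of this in the member values of those libraries was not tested. Of 10 leukocyte markers only CD68 reached 1 FPKM, measured in the joined CD68,MPDU1 locus. In a library 3 to 4 of 10 epithelial markers and 0 to 4 of 10 endothelial markers reached 1 FPKM. The summed endothelial level was 22.6 FPKM in OIS and 1.52 to 3.31 elsewhere. Of the 4 endothelial markers compared, 3 rose in OIS, where 9.13% of all compared genes did. They were CLDN5 (0.178 FPKM in growing, 11.6 in OIS), TIE1 (0.631 and 4.05) and ROBO4 (1.19 and 4.47). CDH5 was listed at 0 in all 4 libraries. The part of this endothelial signal in the OIS results was not tested. A library listed 63 to 87 of the 12183 compared genes at 0, and 21 to 30 of them reached 20 FPKM in another library, so a 0 may be a failed estimate.

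In growing cells E2F4 was the highest member at 25.7 FPKM, followed by the E2F1 locus at 13.5, RB1 at 11.3, RBL2 at 9.12 and E2F3 at 8.66. E2F7 was at 6.08, RBL1 at 4.07, E2F5 at 2.83, E2F8 at 1.25 and E2F2 at 0.551 FPKM. E2F4 kept the first place in all 4 libraries. With 1 library a group, no spread is known that would separate neighbours in this order, such as RB1, RBL2 and E2F3. In OIS E2F7 moved from the sixth place to the second and RBL2 to the third, and in H3.3cs1 late RBL2 and RB1 followed E2F4. The E2F2 gene did not reach 1 FPKM in any library. The other 9 members did, E2F8 in growing cells only.

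**Figure D1:**
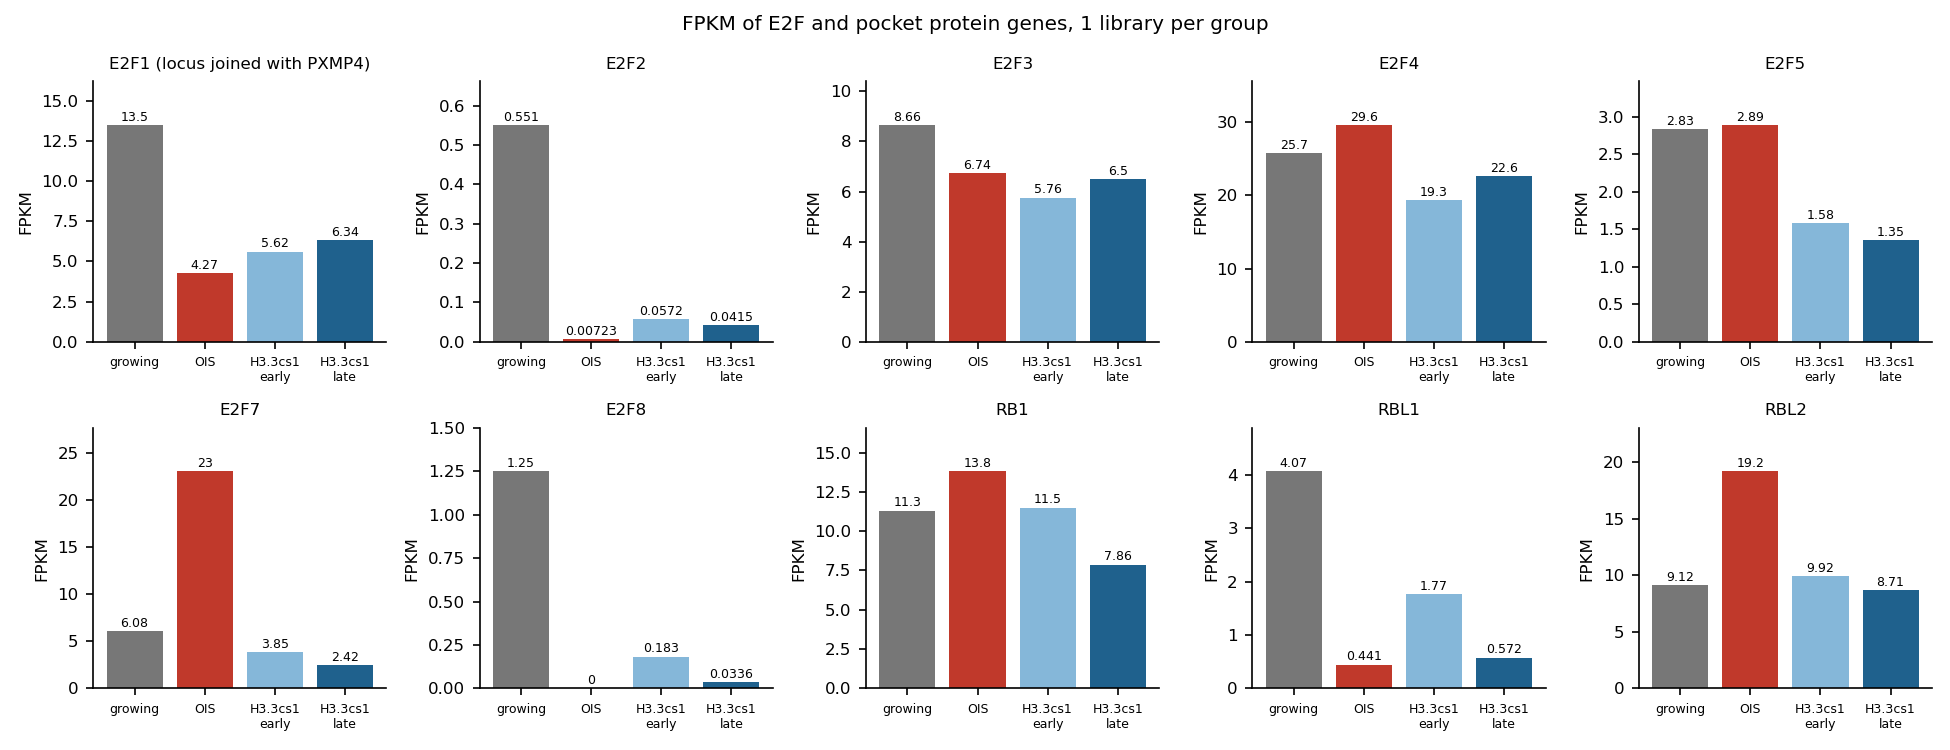
FPKM (y axes, each from 0 with its own range) of the 10 genes in the growing, OIS, H3.3cs1 early and H3.3cs1 late libraries (bars, 1 library each, values printed above). E2F7 is highest in OIS at 23.0 and lowest in H3.3cs1 late at 2.42, while RBL1 is lower in the other 3 libraries than the 4.07 of growing.

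Among the activators, the E2F1 locus was lower in all 3 other libraries than in growing cells, while E2F3 stayed within 2-fold. The E2F1 locus measured 13.5 FPKM in the growing library against 4.27 in OIS, 5.62 in H3.3cs1 at day 3 and 6.34 at day 13. It fell by 1.46 on the log2 scale in OIS (2.76-fold) and by 1.13 in H3.3cs1 early (2.19-fold). The difference in H3.3cs1 late was -0.98 (1.98-fold), just short of the size rule, and -1.08 with a pseudocount of 0.1, which passes. After rescaling to the same sum the difference in H3.3cs1 early was -0.91 and did not pass either. E2F2 measured 0.551 FPKM in the growing library against 0.00723 in OIS, 0.0572 in H3.3cs1 at day 3 and 0.0415 at day 13. The growing library was thus the only one above 0.1 FPKM, and at such levels the scale used here cannot show a 2-fold difference. With a pseudocount of 0.1 in place of 1, E2F2 passed the size rule in OIS (-2.60), early (-2.05) and late (-2.20). E2F3 measured 8.66 FPKM (growing), 6.74 (OIS), 5.76 (early) and 6.50 (late). Its differences from growing lay between -0.52 and -0.32. The summed FPKM of the 3 activators was 22.7 in growing cells against 11.0 in OIS, 11.4 at day 3 and 12.9 at day 13 of H3.3cs1, and E2F3 made up 38.1% of it in growing and 61.2% in OIS. Shares of this kind are taken within a library and do not depend on the scaling between libraries.

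E2F genes are known to be E2F targets themselves, and upstream sequences of 5 members in the RefSeq table are printed here. They were picked by their expression values. The E2F1 locus, E2F2, E2F3 and RBL1 were lower in all 3 other libraries, E2F3 within 2-fold. E2F7 rose in OIS but lay below growing in H3.3cs1 early (-0.55) and late (-1.05). Whether the matches bear on the expression values was not tested. The lines give the 100 bases before the RefSeq start (GRCh38.p14, a build other than the hg19 of the expression files), with capitals for exact matches on either strand to the E2F core word (TTTCCCGC, TTTCGCGC, TTTGCCGC or TTTGGCGC) or to the cell cycle homology region, CHR (TTTGAA or TTCGAA).
E2F1, chr20:33686386-33686485, minus strand: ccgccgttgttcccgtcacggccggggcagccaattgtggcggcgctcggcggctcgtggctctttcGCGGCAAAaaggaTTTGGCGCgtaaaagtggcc
E2F2, chr1:23531234-23531333, minus strand: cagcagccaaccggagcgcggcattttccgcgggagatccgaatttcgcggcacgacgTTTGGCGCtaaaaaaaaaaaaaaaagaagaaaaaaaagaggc
E2F3, chr6:20401779-20401878, plus strand: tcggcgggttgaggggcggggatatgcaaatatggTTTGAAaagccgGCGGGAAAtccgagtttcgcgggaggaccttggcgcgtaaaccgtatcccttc
RBL1, chr20:37095998-37096097, minus strand: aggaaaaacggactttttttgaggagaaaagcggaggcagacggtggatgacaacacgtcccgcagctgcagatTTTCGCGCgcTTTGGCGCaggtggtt
E2F7, chr12:77065570-77065669, minus strand: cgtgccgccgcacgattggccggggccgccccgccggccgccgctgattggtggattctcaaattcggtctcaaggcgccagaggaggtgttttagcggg
The E2F1 and RBL1 sequences each hold 2 E2F words, which do not overlap, and the E2F2 and E2F3 sequences hold 1 each. In E2F3 the match in capitals nearest the 5′ end is the CHR hexamer. Over the 250 bases before the start, an E2F word was found in 4 of 10 windows of the 8 members in the RefSeq table (40.0%) and in 2.79% of all 35116 windows, and a CHR hexamer in 1 of 10 and in 14.3%. The windows of E2F4, E2F7 and RBL2 held no exact match. That of RB1 belongs to a start inside the gene and is not its main promoter. E2F3 and RBL2 each had a second window, which also lay inside the gene and held no match. A match is a description of the letters and not of binding.

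The repressors E2F4 and E2F5 showed no difference of 2-fold from growing. E2F4, which supplies most of the E2F bound in resting cells, measured 25.7 FPKM in the growing library against 29.6 in OIS, 19.3 in H3.3cs1 at day 3 and 22.6 at day 13. The H3.3cs1 libraries were the lowest for this gene and OIS the highest, with differences from growing of 0.20 in OIS, -0.40 in early and -0.18 in late. E2F5, its close relative, measured 2.83 FPKM (growing), 2.89 (OIS), 1.58 (early) and 1.35 (late). Growing and OIS were close and both H3.3cs1 libraries lay below them, by -0.57 in early and -0.71 in late. E2F5 in H3.3cs1 late passed 2-fold with a pseudocount of 0.1 (-1.02). E2F4 made up 43.9% of the summed FPKM of the 7 E2F genes in growing cells, 44.5% of it in OIS, 53.1% at day 3 and 57.5% at day 13 of H3.3cs1.

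Of the atypical repressors, E2F7 rose in OIS, while E2F8 was listed there at 0, which may be a failed estimate. E2F7, which is also known as a target of p53, measured 6.08 FPKM in growing cells and 23.0 in OIS, but 3.85 in H3.3cs1 early and 2.42 in late. It rose 3.38-fold in OIS (difference 1.76) and fell 2.07-fold in H3.3cs1 late (-1.05), and the -0.55 of early did not pass 2-fold. OIS was therefore the highest library for this gene and H3.3cs1 late the lowest. Set directly against each other, OIS was 7.01-fold above H3.3cs1 late (2.81), at percentile 98.4 of all compared genes. E2F8 was at 1.25 FPKM in growing, 0.183 in early and 0.0336 in late, and was listed at 0 in OIS. It fell 2.17-fold in H3.3cs1 late (-1.12), and the -0.93 of early did not pass 2-fold, but did with a pseudocount of 0.1 (-2.25). Against the value of 0 in OIS no fold is given. E2F8 made up 17.0% of the summed atypical FPKM in growing, 4.52% in early and 1.37% in late.

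Of the pocket protein genes, RBL1 fell in both senescent states and RBL2 stood highest in OIS, while RB1 stayed within 2-fold. RBL1, whose protein is made mostly in cycling cells, measured 4.07 FPKM in the growing library against 0.441 in OIS, 1.77 in H3.3cs1 at day 3 and 0.572 at day 13. It fell 3.52-fold in OIS (-1.82) and 3.23-fold in late (-1.69). H3.3cs1 early lay between growing and late (-0.87 from growing). With a pseudocount of 0.1 RBL1 passed 2-fold also in early against growing (-1.16) and from early to late (-1.48). RBL2, whose protein prevails in resting cells, measured 9.12 FPKM in the growing library against 19.2 in OIS, 9.92 in H3.3cs1 at day 3 and 8.71 at day 13. OIS alone stood apart from the other libraries, 1.995-fold above growing on the scale used, just under the size rule (a difference of 1.07 with a pseudocount of 0.1, which passes, and of 0.77 after rescaling to the same sum and 0.97 after centring on the median gene, which do not). Against H3.3cs1 late RBL2 was 2.08-fold higher in OIS (1.06), which no longer passed after rescaling to the same sum (0.82) or centring on the median gene (0.96). RB1, the retinoblastoma protein gene, measured 11.3 FPKM (growing), 13.8 (OIS), 11.5 (early) and 7.86 (late). H3.3cs1 late was its lowest library, with a difference of -0.47 from growing and -0.50 from early. In bulk RNA, fewer cells that express a gene and less RNA of it per cell cannot be told apart.

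Within a library, RBL1 made up 16.6% of the summed pocket protein FPKM in growing, 7.62% in H3.3cs1 early, 3.33% in late and 1.32% in OIS. The share of RBL2 was 37.2%, 42.7%, 50.8% and 57.4% in the same libraries, and that of RB1 lay between 41.2% and 49.7%. The ratio of RBL2 to RBL1 was 2.24 in growing, 5.60 in early, 15.2 in late and 43.5 in OIS. In OIS RBL1 fell and RBL2 was 1.995-fold above growing, whereas in H3.3cs1 late RBL1 fell and RBL2 differed from growing by -0.06.

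**Figure D2:**
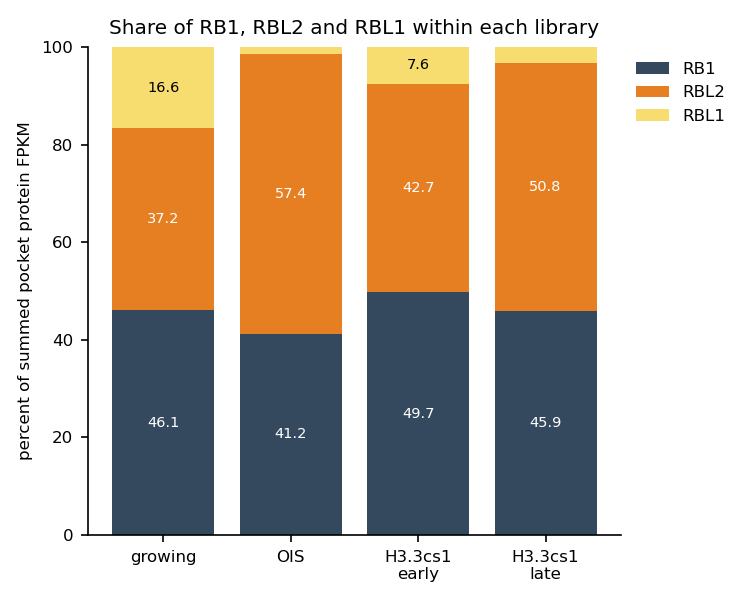
Percent of the summed FPKM of RB1, RBL2 and RBL1 (y axis) that each gene makes up in the growing, OIS, H3.3cs1 early and H3.3cs1 late libraries (stacked bars, 1 library each). The share of RBL1 is 16.6% in growing and 1.32% to 7.62% in the others, and RBL2 exceeds RB1 in OIS and H3.3cs1 late.

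The member counts and medians below cover all 10 members. E2F2 among them did not reach 1 FPKM, so it is not a compared gene and cannot pass 2-fold on this scale. Counted together, 1 of the 10 members rose in OIS (E2F7), where 9.13% of all compared genes did, and 3 fell (the E2F1 locus, E2F8 and RBL1), where 8.17% did. One of these 3, E2F8, is the gene listed at 0, and without it 2 fell. In H3.3cs1 late none rose (background 3.51%) and 3 fell (E2F7, E2F8 and RBL1), against 5.47% of all compared genes. A gene that reached 1 FPKM in growing cells only, as E2F8 did, can be called lower but not higher. In H3.3cs1 early none rose (background 1.40%) and 1 fell, the E2F1 locus, against 3.96%. From H3.3cs1 early to late no member passed 2-fold in either direction (background 5.47% higher and 3.40% lower), with RBL1 at -0.82 the farthest from 0. Between OIS and H3.3cs1 late 2 members, E2F7 and RBL2, were higher in OIS (background 11.2%) and none lower (background 8.51%). The median member difference was -0.15 in OIS, -0.55 in early and -0.64 in late, beside medians of 0.03, -0.02 and -0.04 over all compared genes. All 10 members lay below growing in H3.3cs1 late, 8 did in early and 5 in OIS, where 53.8%, 52.7% and 47.8% of all compared genes did. After rescaling to the same sum these counts were 10, 8 and 7 members, beside 53.3%, 29.9% and 61.0% of all compared genes. These 3 comparisons share the growing library, so their values are given side by side and are not independent of each other.

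**Figure D3:**
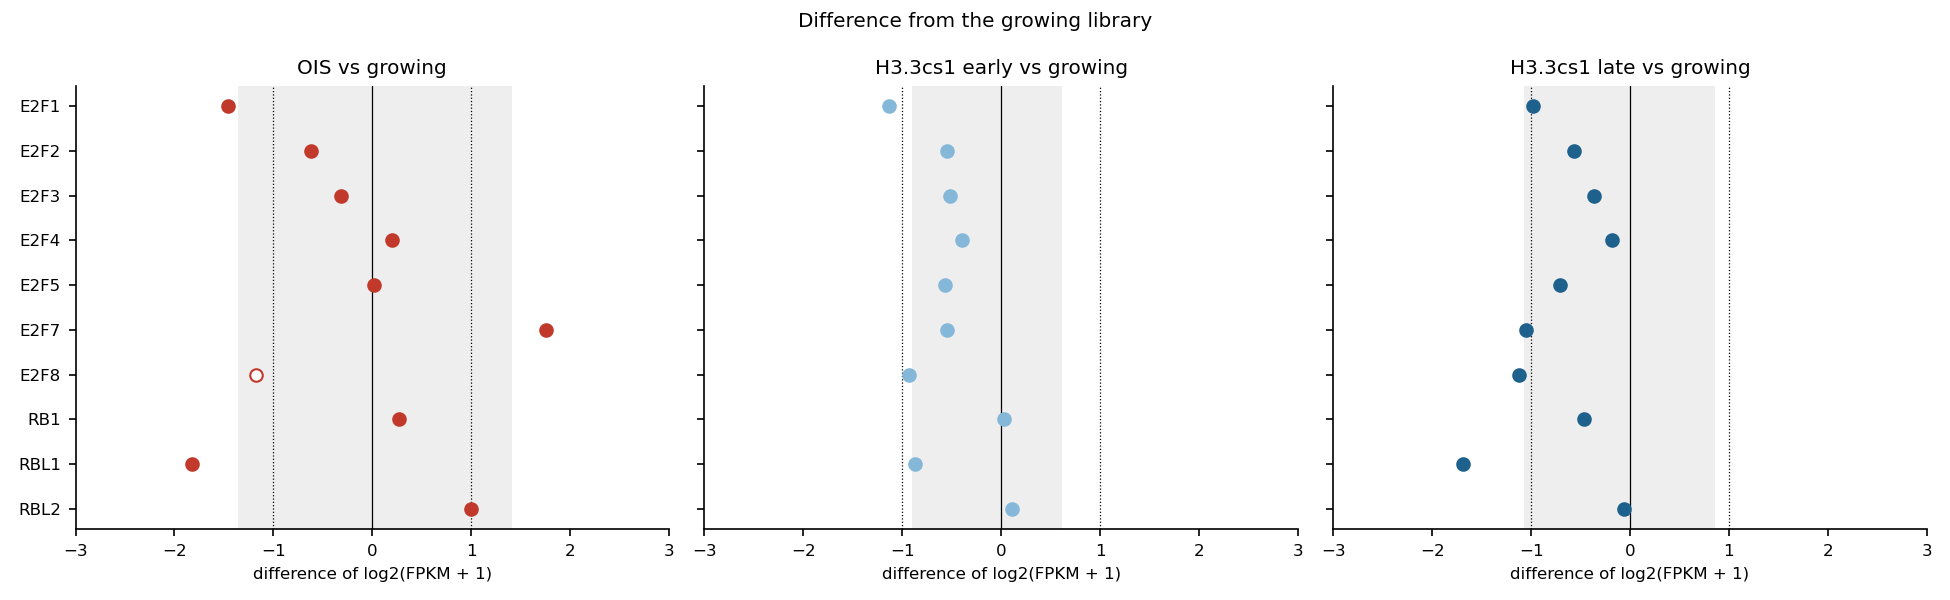
Difference of log2(FPKM + 1) from the growing library (x axes) for each of the 10 genes (rows) in OIS, H3.3cs1 early and H3.3cs1 late. Dotted lines mark 2-fold, the grey band holds the genes between percentiles 5 and 95 of all compared genes, and the open circle marks E2F8 in OIS, listed at 0. E2F7 lies at 1.76 in OIS and at -1.05 in H3.3cs1 late.

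Of the partners, TFDP1, the main DP subunit, measured 50.5 FPKM in the growing library against 35.0 in OIS, 39.4 in H3.3cs1 at day 3 and 36.3 at day 13, and TFDP2 was at 2.81, 1.86, 4.27 and 2.81. E2F6, a repressor that works without pocket proteins, was at 4.40, 6.16, 4.77 and 3.18 FPKM. None of these 3 genes passed 2-fold against growing. TFDP3 was listed at 0 in 3 libraries and measured 0.0197 FPKM in OIS, and was not compared. The MuvB core joins E2F4 or E2F5 with RBL1 or RBL2 to form DREAM, the complex that silences division genes in resting cells, and joins MYBL2 and FOXM1 in cycling cells to switch them on. The 8 listed genes are core subunits and the partners MYBL1, MYBL2 and FOXM1. In OIS 3 fell, all of them partners, and none rose. In H3.3cs1 late 3 fell (LIN9, MYBL2 and FOXM1) and none rose. Over all compared genes 8.17% fell in OIS and 5.47% in late. FOXM1 measured 26.5 FPKM in the growing library against 0.817 in OIS, 7.16 in H3.3cs1 at day 3 and 1.45 at day 13, and fell 15.1-fold in OIS and 11.2-fold in late. MYBL2 stood at 13.3 FPKM in growing cells, 0.187 in OIS and 0.727 in late, with falls of 12.0-fold and 8.26-fold. MYBL1 fell 7.78-fold in OIS, to 1.39 FPKM from 17.6, and was at 19.3 in early and 11.2 in late. The core subunit LIN9 fell 2.13-fold in late (2.06 FPKM in growing, 0.657 in OIS, 0.435 in late). LIN37, LIN52, LIN54 and RBBP4 did not pass 2-fold in OIS or late, with differences from -0.87 to 0.32.

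Of the cyclins and kinases that phosphorylate pocket proteins, 9 of 10 were compared, 2 of which fell in OIS and 3 in H3.3cs1 late. Over all compared genes 9.13% rose and 8.17% fell in OIS, and 3.51% rose and 5.47% fell in late. CCND1, cyclin D1, was 1.97-fold higher in OIS than in growing cells (1173.6 against 594 FPKM), just short of the size rule. CCNE2, a cyclin E gene, was at 3.66 FPKM in growing, 0.296 in OIS and 0.579 in late, while CCNE1 was at 4.55, 7.38 and 5.82. Cyclin A2, measured only in the joined BBS7,CCNA2 locus, fell 3.65-fold in OIS and 4.49-fold in late. CDK2, the kinase partner of cyclins E and A, measured 38.3 FPKM in growing cells and 47.2 in OIS, but 13.3 in H3.3cs1 early and 10.9 in late, where it fell 3.31-fold. CCND2, cyclin D2, was the 1 gene of this list that rose in late, from 5.07 to 65.2 FPKM, with 4.81 in OIS. Of 7 CDK inhibitors, which keep pocket proteins unphosphorylated, CDKN1A, CDKN2A and CDKN2B rose in both OIS and late and CDKN2C fell. CDKN2B was farthest among the rises, with 3.43 FPKM in growing cells against 37.3 in OIS, 4.62 at day 3 and 20.5 at day 13 of H3.3cs1.

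Of 10 corepressors that pocket proteins recruit, none rose or fell in OIS and 1, SUV39H1, fell in late. SUV39H1, a histone H3 lysine methyltransferase, was also lower in OIS, just short of the size rule, and in early, within 2-fold. It measured 6.95 FPKM in growing cells, 2.98 in OIS, 3.12 at day 3 and 1.91 at day 13 of H3.3cs1. HDAC1, a histone deacetylase, was at 47.3, 49.0, 44.4 and 44.4 FPKM. Of 5 genes for turnover of E2F and its regulators, 4 fell in OIS and 3 in late. The shares of all compared genes, for each list of this paragraph, were 9.13% higher and 8.17% lower in OIS. In late they were 3.51% higher and 5.47% lower. CDC20, an activator of the anaphase-promoting complex, fell 35.2-fold in OIS and 19.3-fold in late, from 63.8 FPKM in growing cells to 0.840 and 2.36. CKS1B, a CDK subunit that works with SKP2, fell 3.72-fold in OIS and 5.26-fold in late (60.3 FPKM in growing cells, 15.5 and 10.6). CCNF, cyclin F, also fell in both (9.51 FPKM in growing, 2.19 in OIS, 1.42 in late), and SKP2 fell 2.23-fold in OIS and was within 2-fold in late. Of 10 apoptosis genes known as E2F1 targets, 8 were compared. In OIS 2 rose, PMAIP1 (NOXA) from 30.8 to 91.2 FPKM and BBC3 (PUMA) from 4.99 to 11.2, and none rose or fell in late.

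In each of the 3 other libraries most of the listed G1/S and G2/M targets of these factors fell, unlike the apoptosis targets above. Of 35 G1/S targets of E2F, 21 fell in H3.3cs1 early, 30 in OIS and 32 in late, and none rose. Over all compared genes 3.96%, 8.17% and 5.47% fell in these libraries. The medians of the 35 targets were -1.13, -1.84 and -1.98, beside -0.02, 0.03 and -0.04 over all compared genes. Target counts were not repeated after rescaling to the same sum, which moved the early median of all compared genes to 0.19. Early calls near the cut, such as MCM3 (-1.09) and PRIM1 (-1.08), may depend on the scaling. TK1, thymidine kinase, fell 20.8-fold in OIS and 11.0-fold in late, and RRM2, a ribonucleotide reductase subunit, fell 13.4-fold and 18.6-fold. GINS2 (8.07-fold and 8.68-fold) and TYMS (5.88-fold and 7.42-fold), a replication factor and thymidylate synthase, also fell. Among the targets that did not fall in OIS, UNG, uracil DNA glycosylase, measured 11.5 FPKM in the growing library against 11.5 in OIS, 12.8 in H3.3cs1 at day 3 and 12.1 at day 13. All 26 G2/M targets of DREAM fell in OIS (median -4.06), early (-1.98) and late (-3.40). PLK1, a mitotic kinase, fell 35.5-fold in OIS and 17.0-fold in late, and UBE2C, a ubiquitin-conjugating enzyme, fell 31.5-fold and 21.0-fold. From H3.3cs1 early to late 22 of the 26 fell further (median -1.39), as did 11 of the 35 G1/S targets (-0.75), where 3.40% of all compared genes fell. Directly between OIS and late, 2 of the 26 were lower in OIS (-0.38), where 8.51% of all compared genes were lower. Of the 35 G1/S targets 1 was higher in OIS (0.11), where 11.2% of all compared genes were higher.

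**Figure D4:**
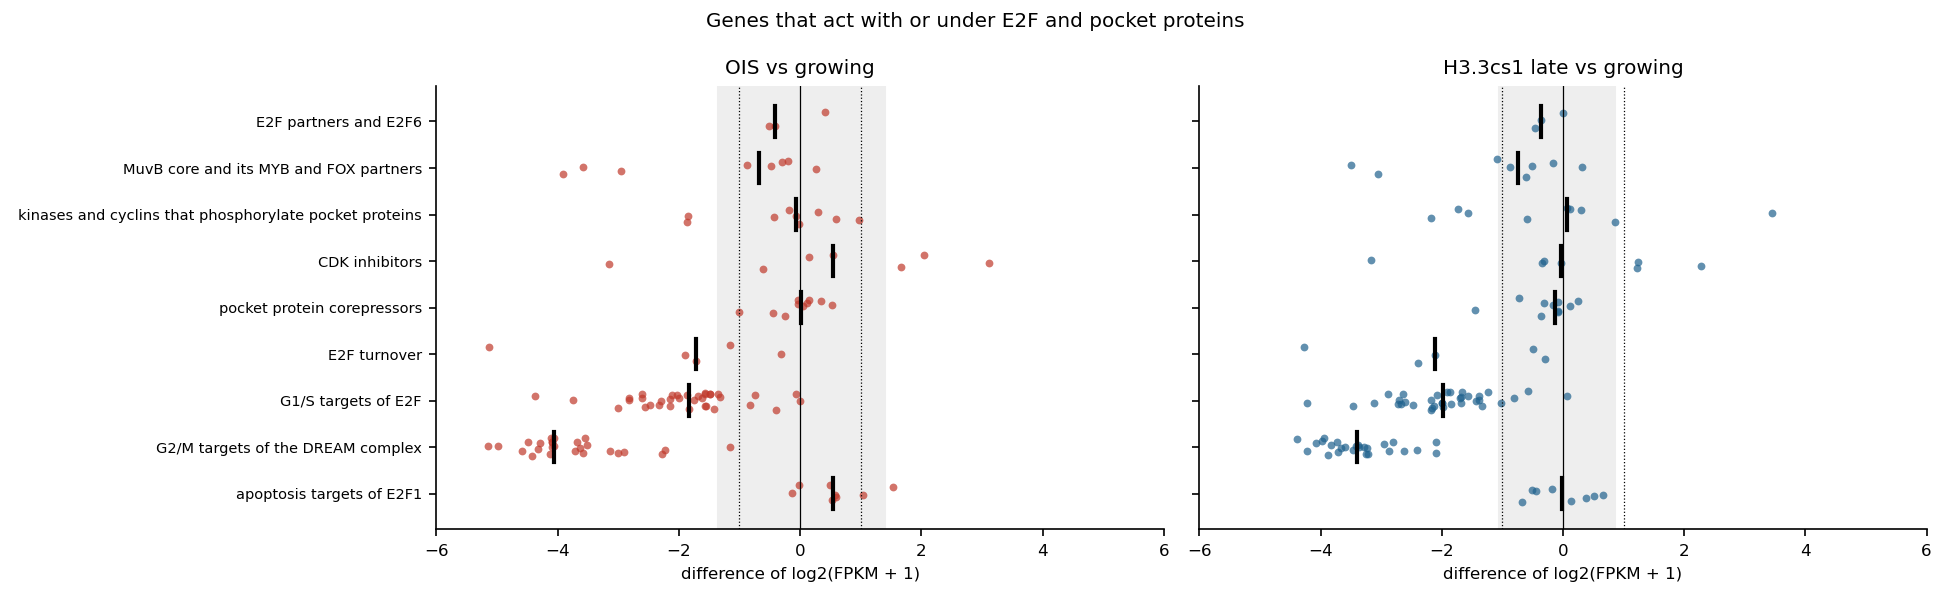
Difference of log2(FPKM + 1) from growing (x axes) for each compared gene (points, jittered vertically) of 9 lists (rows) in OIS and H3.3cs1 late. Black bars are list medians, dotted lines mark 2-fold and the grey band spans percentiles 5 to 95 of all compared genes. The G2/M targets have medians of -4.06 and -3.40, and the corepressors 0.01 and -0.13.

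E2F7, RBL1 and the E2F1 locus were the members with the widest range of log2(FPKM + 1) over the 4 libraries (2.81, 1.82 and 1.46). The genes most like each were sought by Euclidean distance over the 3 differences from growing, among 9072 to 9073 genes at 5 FPKM or more somewhere and above 0 in all libraries. With only 4 libraries many genes lie close. Nearest to E2F7 were FAM20C (0.18), GLCE (0.26), CORO2B (0.27), PNP (0.28) and ZEB1 (0.31). FAM20C, a secretory pathway kinase, measured 49.5 FPKM in the growing library against 151 in OIS, 33.8 in H3.3cs1 at day 3 and 22.2 at day 13, high in OIS and low in late like E2F7. Nearest to RBL1 were GINS4 (0.09), FEN1 (0.14), ITGB3BP (0.26), MCM4 (0.26) and the joined DHDDS,HMGN2 locus (0.27), of which FEN1 and MCM4 are also on the list of G1/S targets. GINS4, a subunit of the replicative helicase complex, was at 10.0, 2.19, 4.84 and 2.24 FPKM, low in OIS and in late. Nearest to the E2F1 locus were TUBA1C (0.11), SFPQ (0.18), the joined DPAGT1,H2AFX locus (0.22), POLE (0.25) and ZNF22 (0.25).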

How the data were processed

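The authors deposited FPKM, 1 value per locus. Cufflinks 2.1.1, TopHat2 2.0.3, Bowtie2 and the build hg19 are listed in the submitters' processing notes, which assign them no step. Read counts, strand, multiply mapped reads and normalization across libraries: not given in the sources used here. Libraries were TruSeq poly(A), per the labels' protocols. The header line of each file names its value column after the next library, as a header shifted by 1 column would, so samples were taken from the file list of the labels. HRAS was high in the file listed for OIS.

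Of 26468 loci, 2310 without a gene name were left out, which held 47.4% to 57.9% of a library's summed FPKM. Lines of a symbol were summed, and 822 joined loci kept their joined names. Differences are of log2(FPKM + 1), called at 2-fold, over the 12183 genes that reached 1 FPKM in any library. Relative depth came from the commonest ratio between values under 0.1 FPKM. The members and lists were chosen with earlier results of these data known. Named genes were all members, HRAS, up to 4 genes of each list with the largest differences in OIS or H3.3cs1 late, all listed partners and MuvB genes, and the 5 nearest genes of 3 members. Some list genes named here (CCNE1, CDK2, UNG, HDAC1, PMAIP1 and others) were chosen after their values were seen. Alternatives were another pseudocount, filters, scalings, and the treatment of repeated, joined and 0 values. Python 3.11.15, pandas 2.3.3 and numpy 2.4.6 were used.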

Additional observations from a re-analysis of the deposited data

Results flagged for a closer look

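E2F7 was the 1 gene among the members and their 9 related lists that passed 2-fold in opposite directions, higher in OIS and lower in H3.3cs1 late than in growing cells. The libraries of OIS and H3.3cs1 late differed by 2.81 in log2(FPKM + 1). With 1 library per group the difference was not tested.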

How the results depend on the processing

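With a pseudocount of 0.1, 2 members rose in OIS, and 6 fell in H3.3cs1 late, 4 in early and 2 from early to late. With only the 6 members that reached 5 FPKM somewhere, 1 fell in OIS and 1 in late. After rescaling to the same sum, 0 fell in early and 1 was higher in OIS than in late, as was also 1 after centring. Leaving out joined loci removes E2F1, and then 0 fell in early. The other settings (no filter on the background, the highest line, and, added after seeing the data, leaving out genes at 0) kept every member count within 1.5 times, and no member's difference that had passed 2-fold changed sign in any setting. Over all compared genes, the pseudocount of 0.1 gave 1523 lower in OIS (995 with 1), 743 higher in late (428), 437 higher in early (171) and 910 lower from early to late (414), and the same sum gave 316 higher in early and 807 lower from early to late. Without the filter, over 22679 genes, the shares called were 4.90% higher and 4.39% lower in OIS, 1.89% and 2.94% in late, and 0.754% and 2.13% in early. No paired analysis was possible because each group has 1 library, and for the same reason no replicate could be left out. Numbers of reads are not known, so the precision of values below 1 FPKM (E2F2 everywhere, E2F8 and RBL1 in senescent cells) is not known.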

Other observations

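Over the 250 bases before the RefSeq start, the E2F core word was found in 27.5% of 51 windows of the G1/S targets and in 11.5% of 26 windows of the G2/M targets, beside 2.79% of all windows. The CHR hexamer was found in 50.0% of the G2/M windows and in 7.84% of the G1/S windows, beside 14.3% of all. These shares describe letters only and were not compared by a test, and several windows can belong to 1 gene.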
